A study of Sus scrofa with 14 samples.

Results

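The constitutive B compartment of pig adipose tissue was taken as the 20-kb autosomal bins, chromosome 10 left out, in which the first principal component of the Hi-C contact matrix (PC1) was below 0 in all 7 Hi-C libraries. The bins were chosen on PC1 alone, so their PC1 is given as a description and without a test. They numbered 47177 of 109830 bins on 17 autosomes, or of 113298 bins on all 18. Of 12825 genes of the expression table that could be placed on these autosomes by their symbols, 1309 had their start site in such a bin. These 1309 genes are called constitutive B genes below.

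The tissue came from 2-year-old females of wild boar (WB) and of Bama pig (BM), a Chinese indigenous breed, with 2 animals of each breed, kept on the same farm with the same feeding. The wild boars had been caught young, and the Bama pigs were from a line not inbred for long. From each animal the greater omentum (GOM), a visceral fat, and the upper layer of backfat (ULB), a subcutaneous fat, were taken. Each assay had 2 libraries per breed and depot except for BM ULB, of which only replicate 2 was used here, and RNA levels are given as TPM, transcript abundance scaled to transcript length and to the library total. RNA was extracted from whole tissue, which mixes adipocytes with other cells, while for Hi-C the floating layer with the adipocytes was lysed after crosslinking and centrifugation, and the breeds are represented by 2 animals each.

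Chromatin in the nucleus separates into an A compartment, which is open and rich in active genes, and a B compartment, which is compact, gene-poor and often lies at the nuclear lamina. PC1 of the contact map tells both apart, since loci of one compartment contact each other more often than loci of the other. Genes in B are mostly quiet, but a gene with its own active promoter can be transcribed there.

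The sequence before the start site is shown for 6 constitutive B genes, since promoters rich in the dinucleotide CpG are often active in many cell types. Each run is the 300 bases upstream of the start site in RefSeq on Sscrofa11.1, 5′ to 3′ on the gene's strand, with every CG in capitals. The CpG ratio is the observed number of CG divided by the number that the C and G content predicts. RPS23 (minus strand, chr2:90680682-90680981) had the highest median TPM, and TENM3 (plus strand, chr15:41817890-41818189) was the longest gene with a TPM above 1 in every library. CSMD1 (minus strand, chr15:36243763-36244062) and CDH12 (minus strand, chr16:10975490-10975789) were the longest silent genes, with a TPM of at most 0.0569 and 0.0858 in any library.
RPS23: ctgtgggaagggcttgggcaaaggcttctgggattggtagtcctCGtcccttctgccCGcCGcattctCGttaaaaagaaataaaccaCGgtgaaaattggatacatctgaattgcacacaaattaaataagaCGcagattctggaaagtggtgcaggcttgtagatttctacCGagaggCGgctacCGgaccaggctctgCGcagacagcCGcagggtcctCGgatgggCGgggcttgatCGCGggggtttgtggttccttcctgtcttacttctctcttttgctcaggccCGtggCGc
TENM3: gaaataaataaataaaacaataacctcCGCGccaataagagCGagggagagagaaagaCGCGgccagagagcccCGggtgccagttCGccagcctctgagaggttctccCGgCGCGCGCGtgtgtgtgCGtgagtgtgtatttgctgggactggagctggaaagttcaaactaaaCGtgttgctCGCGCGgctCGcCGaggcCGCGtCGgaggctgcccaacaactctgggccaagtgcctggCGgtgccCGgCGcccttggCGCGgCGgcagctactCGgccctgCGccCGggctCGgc
CSMD1: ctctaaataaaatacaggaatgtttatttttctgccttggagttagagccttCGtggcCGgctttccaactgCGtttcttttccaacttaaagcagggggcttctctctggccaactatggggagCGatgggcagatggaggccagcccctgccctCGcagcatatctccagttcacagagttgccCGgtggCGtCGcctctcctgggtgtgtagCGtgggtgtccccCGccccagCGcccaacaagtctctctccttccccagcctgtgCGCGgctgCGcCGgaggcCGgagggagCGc
CDH12: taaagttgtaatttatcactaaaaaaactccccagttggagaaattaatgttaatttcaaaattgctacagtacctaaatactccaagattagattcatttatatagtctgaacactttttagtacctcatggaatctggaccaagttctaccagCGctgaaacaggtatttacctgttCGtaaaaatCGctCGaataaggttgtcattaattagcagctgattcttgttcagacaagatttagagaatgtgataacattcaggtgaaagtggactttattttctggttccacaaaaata
These runs hold 17, 32, 17 and 4 CG, and their CpG ratios are 0.785, 1.06, 0.638 and 0.49. A ratio above 0.6 was thus found at the silent CSMD1 too. Another 2 runs were chosen after their values were seen, for genes that differed between the depots (TMEM98, minus strand, chr12:42101153-42101452, and CRYM, plus strand, chr3:24814710-24815009).
TMEM98: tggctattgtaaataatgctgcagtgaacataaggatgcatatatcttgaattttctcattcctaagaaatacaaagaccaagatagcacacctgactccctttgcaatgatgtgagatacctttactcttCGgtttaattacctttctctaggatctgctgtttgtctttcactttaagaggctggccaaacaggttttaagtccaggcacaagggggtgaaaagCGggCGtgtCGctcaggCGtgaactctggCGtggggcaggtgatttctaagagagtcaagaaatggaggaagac
CRYM: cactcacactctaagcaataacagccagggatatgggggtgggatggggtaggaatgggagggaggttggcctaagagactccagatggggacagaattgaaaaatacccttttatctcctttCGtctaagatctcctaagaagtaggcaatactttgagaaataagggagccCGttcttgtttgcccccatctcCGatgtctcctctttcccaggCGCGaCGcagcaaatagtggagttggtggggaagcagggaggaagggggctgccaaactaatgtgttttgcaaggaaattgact
Their CpG ratios are 0.427 and 0.337, both below 0.6.

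The constitutive B bins covered 943.5 Mb, 43% of the 17 autosomes. Constitutive A bins, above 0 in every library, covered 922 Mb, and the variable bins, whose sign changed between libraries, 330.9 Mb. In a single library between 49.3% and 51.4% of bins were below 0, and 83.6% to 87.1% of these were constitutive. PC1 has a mean of 0 on each chromosome, which by itself puts bins on both sides of 0 but does not fix how many lie below. Centred on the chromosome median instead, constitutive B covered 937.5 Mb. The highest PC1 among the 7 libraries had a median of -20.7 over the members, and it lay between -1 and 0 in 1121 of them. Just outside, 3383 bins were below 0 in 6 of 7 libraries, and the seventh value was below 1 in 980 of these. The library that alone kept such a bin out was most often WB ULB replicate 1, with 843 bins, and least often WB GOM replicate 2, with 233.

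Members were spread over every autosome examined, from 38.3% of the length of chromosome 14 to 47.5% of chromosome 2, with a median of 42.3%. They formed 2088 uninterrupted runs with a median length of 80 kb and a mean of 452 kb. There were 625 runs of a single bin, while 259 runs of at least 1 Mb held 66.5% of the length. The longest run, 11.2 Mb, lay on chromosome 16 from 6500001 to 17700000, had a GC content of 34.8%, and held the starts of 5 genes of the table, of which 2 were silent and 1, the cadherin gene CDH6, had a TPM above 1 in every library. The next longest, 8.7 Mb on chromosome 8, held the start of ADGRL3, a latrophilin receptor of synapses. Long runs were not all poor in active genes. The 6.66-Mb run on chromosome 12 held 17 genes, and 13 of them, among them MMD, SCPEP1, AKAP1 and TOM1L1, had a TPM above 1 in all libraries.

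**Figure D1:**
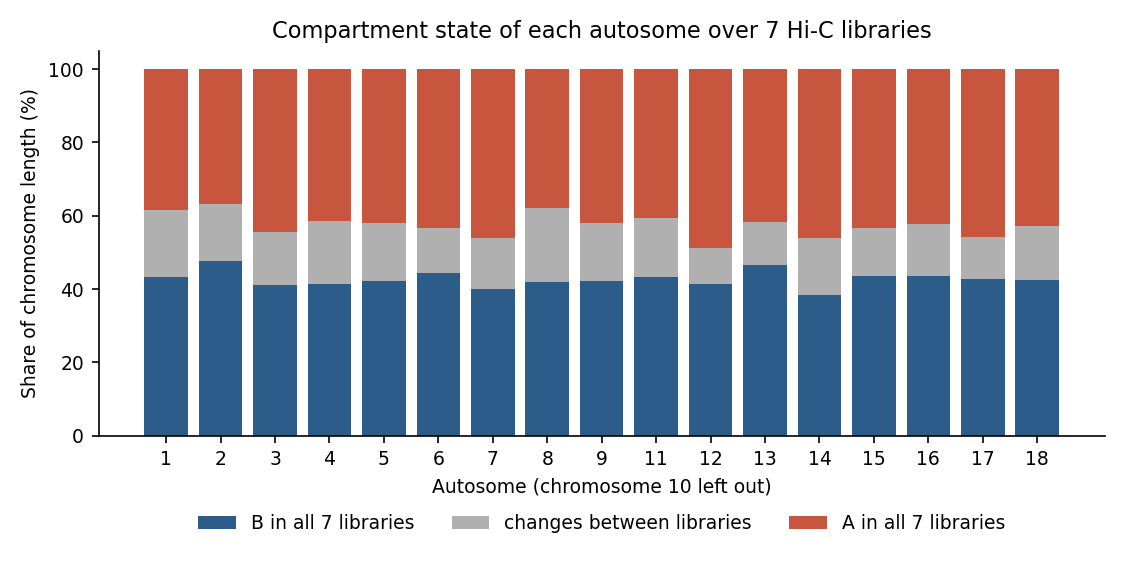
Share of each autosome's length (y axis, percent) in bins that were B in all 7 Hi-C libraries, A in all 7, or changed between libraries, for 17 autosomes (x axis, chromosome 10 left out). The constitutive B share lies between 38.3% and 47.5% on every one of them.

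GC content was not used directly to choose the bins. It was 38.7% in constitutive B, 41.8% in variable bins and 45.2% in constitutive A. On 17 of 17 chromosomes it was lower in B than in A. The authors, however, relied on gene density to decide for each chromosome which side of PC1 was B. Where gene-dense bins are also rich in GC, the direction of a GC or CpG difference is not independent of that choice. CpG dinucleotides numbered 8.14 per kb in B and 16.8 per kb in A, and the cutting site GATC of the MboI enzyme used for Hi-C 2.76 and 3.19 per kb. Repeat-masked bases made up 37.1% of B and 34.5% of A. RefSeq places 2867 protein-coding starts in constitutive B, 3.04 per Mb, against 14.6 per Mb in A, but the authors set the sign of PC1 by gene density, so a difference of this kind follows in part from the rule. Long non-coding RNA genes were also sparser in B, with 1.37 against 3.22 per Mb, while pseudogenes numbered 0.906 per Mb in both. No protein-coding gene started in 1294 of the 2088 B runs (62%), against 38.3% of the A runs. Of these empty B runs 27 were at least 1 Mb long, and the longest reached 3.76 Mb on chromosome 8 from 24080001 to 27840000.

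Topologically associating domains (TADs), the contact domains that the authors called on merged libraries of each breed and depot, were larger within B. Between 21.9% and 23.3% of the TADs in the 4 lists lay wholly in constitutive B, with a median size of 520 to 560 kb. Between 33.2% and 34.7% lay wholly in constitutive A, with a median of 360 to 400 kb. TAD starts numbered 1.36 to 1.48 per Mb in B and 1.88 to 2 per Mb in A, so in each of the 4 lists B held fewer starts per Mb than A. The BM ULB list also draws on a library not analysed here.

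Most constitutive B genes, 736 (56.2%), were neither silent in all libraries nor above a TPM of 1 in all. The median gene among them had a TPM of 0.241. In a single library 23.5% to 35.3% of the constitutive B genes had a TPM of at most 0.1. Of the 1309, 149 (11.4%) had a TPM of at most 0.1 in all 7 RNA-seq libraries, against 2.57% of the 10283 constitutive A genes and 3.97% of the 1233 genes in variable bins. A TPM of exactly 0 in every library was listed for 58 (4.43%). At the other end 424 (32.4%) had a TPM above 1 in all 7 libraries, against 75.5% in A and 58.9% in variable bins, and 805 (61.5%) passed 1 in at least 1 library. The median gene had a TPM of 0.556 in B and of 12.4 in A. These shares hold for genes with a symbol that could be placed. RefSeq has 2867 protein-coding starts in B and 13464 in A, so fewer of them were reached in B, and the 7696 genes of the table that were not placed included 21.7% that were silent and 23.9% with a TPM above 1 throughout.

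**Figure D2:**
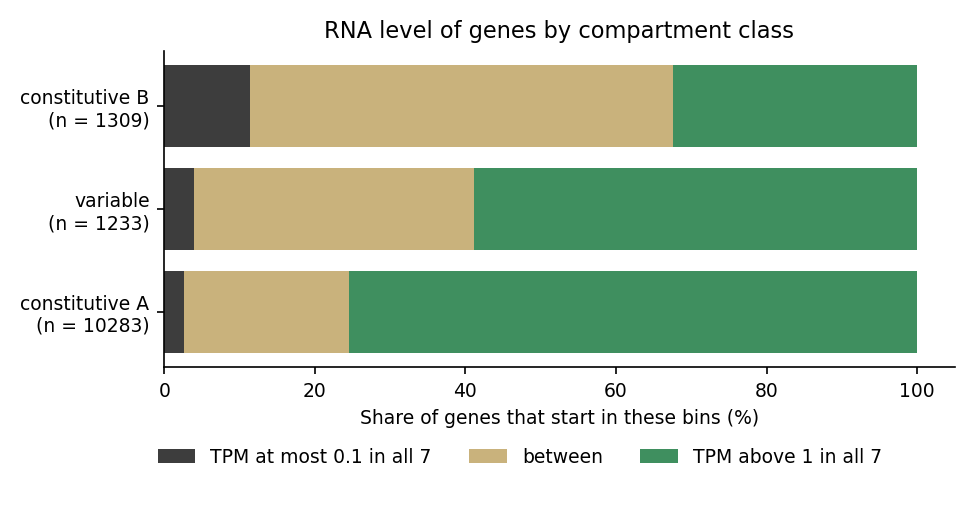
Share of genes (x axis, percent) with a TPM of at most 0.1 in all 7 RNA-seq libraries, above 1 in all 7, or between, for genes that start in constitutive B, variable and constitutive A bins. Silent genes make up 11.4%, 3.97% and 2.57%, and genes above 1 throughout 32.4%, 58.9% and 75.5%.

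Constitutive B genes were long. The median length was 64.1 kb in B and 24.8 kb in A, and 120 B genes (9.17%) exceeded 500 kb, against 57 (0.554%) in A. Expressed B genes had a median length of 70.5 kb and a median of 10 exons. Silent B genes were shorter, with a median of 22.4 kb and 6 exons, and 15 of the 149 had a single exon. In A and in variable bins the silent genes were shorter still, with medians of 8.7 and 9.9 kb and of 5 exons in both. All 424 expressed genes and all 149 silent ones were protein-coding in RefSeq, the kind of gene that the expression table was made for. The silent share fell with length. Of the B genes under 10 kb 27.4% were silent, against 6.65% of those of 50 to 200 kb and 5% of those over 500 kb.

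The share of expressed genes was higher where the upstream 300 bases were rich in CpG. Of 508 B genes with a CpG ratio of at least 0.6, 42.9% had a TPM above 1 in all libraries and 7.87% were silent, and of the 801 with a lower ratio 25.7% and 13.6%. In A the corresponding expressed shares were 84.8% and 60.8%. CpG-rich genes in B were thus expressed in a smaller share of cases than CpG-poor genes in A. The share did not move one way with distance from the edge. Of 184 genes that started 20 kb from the nearest bin outside the set 38.6% were expressed, of 333 at 40 to 100 kb 30.3%, of 497 at 120 to 500 kb 29.4%, and of 295 farther inside 35.9%. PC1 of the start bin was closer to 0 for expressed genes, with a median highest value of -7.82 against -17.3 for silent ones, and 269 of the 424 expressed genes started in a bin below -5 in every library. These are values across genes, which are no replicates, and were not tested.

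**Figure D3:**
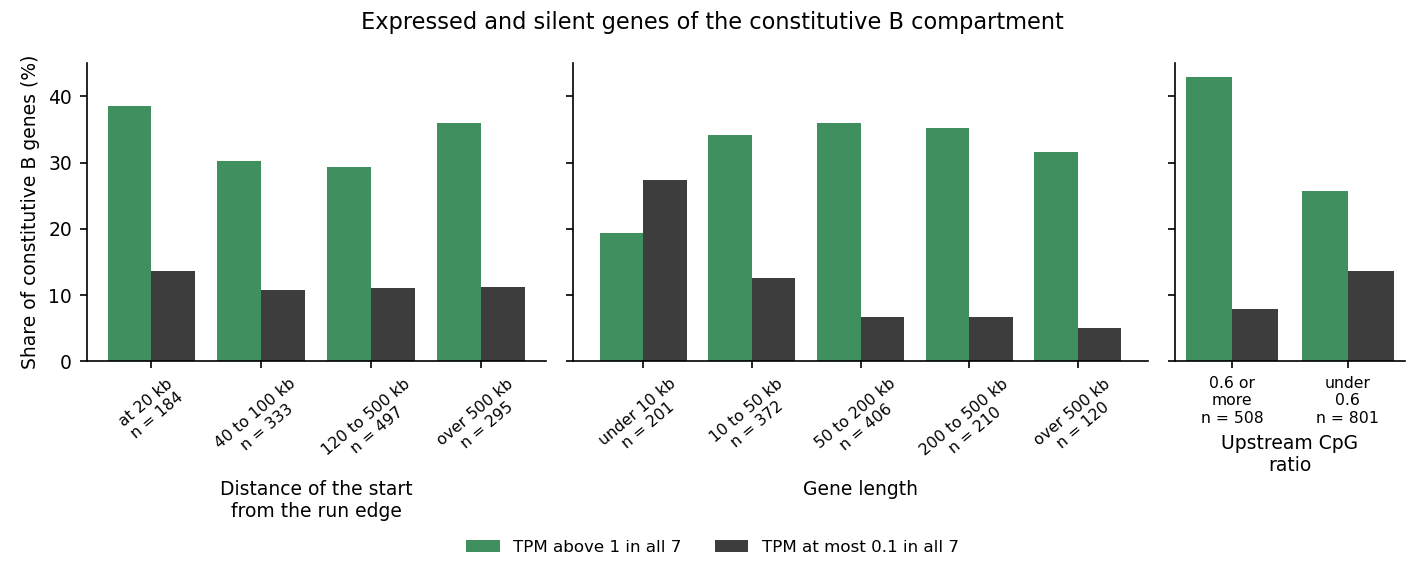
Share of the 1309 constitutive B genes (y axis, percent) with a TPM above 1 in all 7 libraries and with a TPM of at most 0.1 in all 7, by distance of the start site from the nearest bin outside the set, by gene length and by the CpG ratio of the 300 upstream bases. The expressed share is 38.6% at the edge and 35.9% beyond 500 kb, and it is 42.9% and 25.7% above and below a CpG ratio of 0.6.

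Named by median TPM, the 10 most abundant of the 424 were RPS23, RPL38, HBB, CA3, SDR16C5, MMD, MGST1, ME1, ALDH1A1 and COX7C. RPS23 and RPL38 encode ribosomal proteins and COX7C a subunit of cytochrome c oxidase. RPS23 (ENSSSCG00000014133) had a TPM of 1990 and 2885 in BM GOM, 1915 in BM ULB, 2959 and 3849 in WB GOM, and 2472 and 2658 in WB ULB. Its start bin was close to the threshold, with PC1 between -8.8 and -0.91. RPL38 had a TPM of 575 and 1579, 349, 1965 and 2885, and 2085 and 2166 in the same order. All 4 wild boar libraries were above all 3 Bama pig libraries for RPL38, while the breeds overlapped for RPS23, and neither gene passed the test between breeds described below (adjusted p = 0.0711 and 0.206 from edgeR over both depots). Ribosomal protein genes have many near-identical copies in mammalian genomes, so their reads may be shared between copies.

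CA3, carbonic anhydrase 3, a protein abundant in adipocytes and slow muscle, started 200 kb inside its run, with PC1 between -19 and -15.1. Its TPM was 530 and 1465 in BM GOM, 170 in BM ULB, 1668 and 2764 in WB GOM, and 1401 and 2098 in WB ULB. The 2 lowest values were in Bama pig. The breeds overlapped across the depots and not within either, and the depots overlapped. The breed difference did not pass the test (log2 fold change 2.31, SE 0.53, adjusted p = 0.0803 from edgeR over both depots). MMD, a membrane protein first described in maturing macrophages, lay 2400 kb inside its run with PC1 between -23.9 and -17.8, and its TPM ranged from 146 to 590. ME1, the malic enzyme that supplies NADPH for fatty acid synthesis, ranged from 116 to 622, ALDH1A1, a retinaldehyde dehydrogenase, from 85.6 to 514, and MGST1, a microsomal glutathione transferase, from 142 to 311. SDR16C5, a retinol dehydrogenase, had a TPM of 199 and 550 in BM GOM, 851 in BM ULB, 324 and 246 in WB GOM, and 632 and 1067 in WB ULB, and one of its PC1 values was -0.01. Its 3 ULB libraries were above all 4 GOM libraries, and the difference did not pass the test (log2 fold change -1.45, SE 0.37, adjusted p = 0.0605 from edgeR). UOX, urate oxidase, ACADM, a dehydrogenase of fatty acid oxidation, PALMD, CXCL12 and the macrophage receptor CD163 were named after their values were seen. UOX was the steadiest of them, with a TPM between 138 and 218.

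HBB, the beta-globin of red blood cells, had a TPM of 171 and 1417 in BM GOM, 344 in BM ULB, 7842 and 12500 in WB GOM, and 2299 and 1953 in WB ULB. PC1 of its start bin lay between -46.2 and -29. ALAS2, the red-cell enzyme of haem synthesis on the X chromosome, followed the same order, with 34 and 46.9 in WB GOM and at most 9.29 elsewhere. The study's methods name an RNA depletion kit that also removes globin transcripts, whereas the labels name another kit. The part of blood in these values was not tested.

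**Figure D4:**
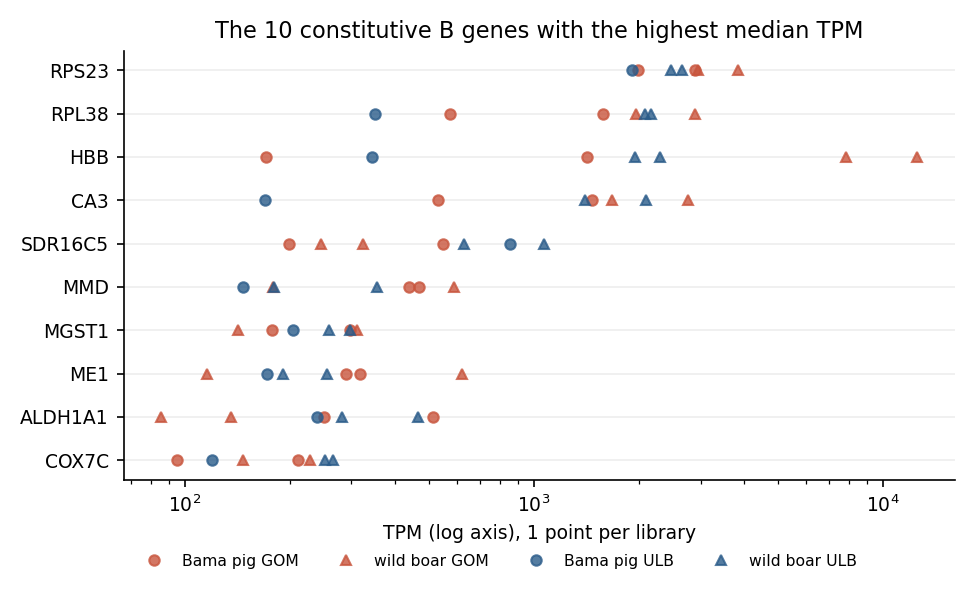
TPM (x axis, log scale) of the 10 constitutive B genes with the highest median TPM, 1 point per RNA-seq library, colour for depot and shape for breed. HBB spans 171 to 12500, the widest of the 10, and MGST1 142 to 311.

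Of the 5 longest expressed members, TENM3, PTPRD and ROBO2 encode surface proteins known from neuronal wiring. TENM3, a teneurin that guides synaptic partners, spans 2584 kb on chromosome 15 from 41818190 to 44401747, and its TPM was 27.6 and 18.5 in BM GOM, 7.01 in BM ULB, 24.6 and 8.13 in WB GOM, and 10.5 and 11.8 in WB ULB. PTPRD, a receptor tyrosine phosphatase of 2181 kb, ranged from 2.73 to 21.2, MACROD2 of 2052 kb from 4.48 to 7.96, ROBO2, a receptor of axon guidance, from 1.23 to 12.2, and RBMS3, an RNA-binding protein, from 16.7 to 48.8. PC1 at the start of PTPRD lay between -65 and -47.4, far below the members' median, and its median TPM was 6.21. The 5 expressed genes farthest from the edge were CTNNA2, an alpha-catenin of neurons, 3740 kb inside, ADGRL3, FPGT, LRRIQ3 and TOM1L1. FPGT and LRRIQ3 overlap head to head and start in the same bin, and ADGRL3 ranged from 3.97 to 19.1.

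Most genes on a chosen list of synaptic adhesion and axon guidance genes lay in B. This list, like the others below, was chosen with earlier results of these data known. Of the 55 placed 45 (81.8%) started in constitutive B, where 10.2% of all placed genes did. Of these 45, 14 had a TPM above 1 in all libraries, led by SEMA3D, FLRT2, ROBO1 and TENM3, and 2 were silent. Of 29 cadherins and protocadherins 16 started in B and 5 were expressed: CDH13, CDH11, PCDH9, CDH19 and CDH6. Of 185 ion channel and ligand-gated receptor genes 65 started in B, 7 expressed (among them GRIA2, KCNJ8, TRPC6 and SCN7A) and 11 silent. Of 107 matrix genes 21 started in B and 4 were expressed: SPON1, ADAMTS18, ADAMTS20 and ADAMTSL1. Of 294 solute carriers 42 started in B and 6 were expressed, led by SLC27A6, a fatty acid transporter whose TPM ranged from 9.32 to 40.8, SLC25A13, SLC8A1 and SLC2A13.

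Of 124 genes of ribosome, proteasome and respiratory chain 6 started in B (4.84%), beside the 10.2% of all placed genes, and 4 of these were expressed: RPS23, RPL38, COX7C and NDUFAF5. Of 39 adipocyte lipid and hormone genes 2 did, ME1 and RBP4, both expressed, and of 21 progenitor and fibroblast genes WNT2 and SFRP1, of which SFRP1, a secreted WNT antagonist, had a TPM of 45.1 to 204. Of 252 zinc finger genes 21 were in B and 12 expressed, led by ZNF184, ZNF521, ZNF317 and ZSCAN12. Of 17 cytochrome P450 and glucuronosyltransferase genes 5 were in B and CYP2R1 and CYP2E1 expressed. Of 30 keratin genes 8 were in B and none had a TPM above 1 in all libraries. Of 19 chemosensory receptor genes 6 were in B, and the 1 expressed, OLFM3, entered by its name and encodes a secreted olfactomedin. No list was tested for enrichment.

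Per library, the share of constitutive B genes with a TPM above 1 was 48.1% and 47.1% in BM GOM, 45.8% in BM ULB, 42.9% and 39.9% in WB GOM, and 44.5% and 43.4% in WB ULB. All 4 wild boar libraries were below all 3 Bama pig libraries. The means were 42.7% ± 1.99 (SD, n = 4) and 47% ± 1.15 (SD, n = 3), an exact permutation test gave a two-sided p = 0.0571, the smallest that 4 against 3 libraries allow, and the adjusted p over 4 such tests was 0.114. These libraries came from 2 animals per breed, both depots from the same animals, so a p over libraries is too small for a comparison of animals, and this also holds for the breed tests over both depots. In A the same order held, with 79.9% to 82.1% in wild boar and 82.3% to 83.7% in Bama pig. Between the depots the mean was 44.5% ± 3.83 (SD, n = 4) in GOM and 44.6% ± 1.22 (SD, n = 3) in ULB (exact permutation p = 1).

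Members supplied little of the RNA. Their share of the TPM of all placed genes was 2.95% and 3.5% in BM GOM, 2.98% in BM ULB, 4.49% and 5.62% in WB GOM, and 3.74% and 3.71% in WB ULB, again without overlap between the breeds (exact permutation p = 0.0571, adjusted p = 0.114). HBB alone made up 1.48% and 2.19% in WB GOM and at most 0.401% elsewhere. Without the 10 most abundant members the order turned. The share was then 1.4% to 1.93% in wild boar and 1.96% to 2.11% in Bama pig (exact permutation p = 0.0571). The direction of the breed difference in summed RNA was thus set by these 10 genes.

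The depots were compared over both breeds on estimated counts in edgeR (quasi-likelihood F test), with breed as a covariate, Benjamini-Hochberg adjustment over 17877 genes, and calls at an adjusted p below 0.05 and a fold change above 2 (log2 above 1). Total estimated counts per library ranged from 10833153 to 18627076. Of 1042 constitutive B genes tested 87 were called (8.35%), beside a background of 3.58% of all genes tested. Of these 37 were higher in GOM, where 2.29% of all genes were, and 50 were higher in ULB, where 1.29% were. A gene needed a TPM above 0.1 in all libraries of only 1 breed and depot, so it could enter through the depot where it was high. For BM ULB that was 1 library. HEATR9, among the 50, had 37 counts there and 1 in WB ULB replicate 2, and TRIM42 had 35 there and at most 2 in any other library. Without the filter 122 of 1251 members were called, beside 999 of 19549 genes. Constitutive A genes were called in 3.24% of 9794 cases and genes of variable bins in 7.93% of 1122. The share was higher in B than in A at each level of expression. Of B genes with a mean TPM under 1, from 1 to 10, and of 10 or more, 3.79%, 13.2% and 9.06% were called, against 2.38%, 4.98% and 2.59% of A genes. In variable bins the shares were 1.29%, 10% and 9.43%. At the highest level genes of variable bins were thus called slightly more often than B genes, so a share above that of A was not particular to B there. These shares describe genes and were not tested.

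Of the 424 expressed members 26 were called between the depots (6.13%), 11 higher in GOM and 15 in ULB. CRYM, crystallin mu, a thyroid hormone-binding protein, had a TPM of 2.03 and 1.91 in BM GOM, 52 in BM ULB, 1.01 and 3.36 in WB GOM, and 52.3 and 58.4 in WB ULB. The depots were far apart in both breeds, with 25.8-fold more in ULB (log2 fold change -4.69, SE 0.43, adjusted p = 0.000415 from edgeR). TMEM98, a membrane protein, showed the opposite, with 32 and 44.5 in BM GOM, 2.58 in BM ULB, 53.8 and 24.4 in WB GOM, and 3.53 and 2.47 in WB ULB, 13.1-fold more in GOM (log2 fold change 3.71, SE 0.36, adjusted p = 0.000535 from edgeR). The other genes higher in GOM were SCIN, an actin-severing protein, ISM1, the progesterone receptor PGR, MCOLN2, MCTP1, GPC6, RBP4, the plasma carrier of retinol, PRKG1, FLRT2 and USP43. PGR had a TPM of 4.12 to 21.9 in GOM and 1.53 to 2.93 in ULB. RBP4 had 123 to 146 in GOM and 28.8 to 67.6 in ULB.

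Higher in ULB beside CRYM were MME (neprilysin, a membrane peptidase), CTNNA2, SLITRK6, STEAP2, CADM2, ROBO2, SEMA3E, LRRN3, LOX (lysyl oxidase, which crosslinks collagen and elastin), DEFB1, CDH13 (T-cadherin, the adiponectin-binding cadherin), FOXP2, MICU3 and SNX7. CTNNA2, 3740 kb inside its run, had a TPM of 1.25 and 1.85 in BM GOM, 4.68 in BM ULB, 1.29 and 1.36 in WB GOM, and 20.1 and 9.35 in WB ULB. LOX had 38.1 to 87.3 in the 4 GOM libraries and 122 to 289 in the 3 ULB libraries (log2 fold change -1.85, SE 0.31, adjusted p = 0.00915 from edgeR). In both genes the depots did not overlap. Of the 26 genes, CRYM, TMEM98, CTNNA2, LOX, STEAP2, MME and SLITRK6 passed both thresholds under every alternative setting run. In whole tissue, a change in the number of cells of one type and a change in RNA per cell cannot be told apart.

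Some of the genes called between the depots were near 0 in one of them. In 17 of the 37 genes higher in GOM no ULB library had a TPM above 1, and in 22 of the 50 genes higher in ULB no GOM library had. Among all 1042 members tested the depot with the lower level had no library above 1 in 349. THBS4, a thrombospondin of connective tissue, had a TPM of 0.95 and 0.7 in BM GOM, 30.4 in BM ULB, 1.09 and 2.59 in WB GOM, and 92.7 and 161 in WB ULB, with 53.4-fold more in ULB (log2 fold change -5.74, SE 0.39, adjusted p = 8.12e-05 from edgeR). IRX2, a homeobox transcription factor, had TPM values of 4.82, 2.56 and 3.37 in the ULB libraries and 219 counts there against 1 count over the 4 GOM libraries, a ratio of 328 with a 95% counting interval of 58.2 to 13000. ANGPTL5, a secreted angiopoietin-like protein, had 24.9 and 64.8 in WB ULB, 0.65 in BM ULB and at most 0.35 in GOM. MMP1, an interstitial collagenase, had 95 counts in ULB and 2 in GOM, a ratio of 71 with an interval of 19.1 to 595. GALNT5, a glycosyltransferase, had a TPM of 1.51 to 2.23 in ULB and at most 0.12 in GOM.

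Higher in GOM, SERPINB2, a plasminogen activator inhibitor, had a TPM of 2.8 and 12.5 in BM GOM, 25.2 and 15.5 in WB GOM and at most 0.14 in ULB, with 817 counts against 3, a ratio of 182 with an interval of 62.1 to 885. GABRA4, a subunit of the GABA-A receptor, and NOBOX, a homeobox factor of oocytes, had no count in ULB and were at least 57.3-fold and 43.9-fold higher in GOM, taken against 3 counts over the ULB libraries. MTNR1A, a melatonin receptor, was at least 10.5-fold higher on the same footing. IGSF10 had a TPM of 31, 3.43, 14.4 and 1.3 in the GOM libraries and at most 0.28 in ULB. Desmosomal DSG2, chosen after its values were seen, had 13.7 to 21.4 in GOM and 0.1 to 1.04 in ULB, and PTPRQ 11.3 to 20.6 and 0.63 to 1.11. The intervals and bounds cover counting error only.

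By list, the calls stand beside 3.58% of all genes tested and 8.35% of the members tested, and no list was tested against these shares. Of 40 synaptic adhesion and axon guidance genes tested 9 were called. ERBB4 and FLRT2 were higher in GOM, and CTNNA2, CADM2, ROBO2, SEMA3A, SEMA3E, NEGR1 and OPCML were higher in ULB. The median log2 fold change of the list was -0.63, beside 0.02 over all genes tested. Matrix genes gave 3 calls of 18, THBS4, MMP27 and MMP1, all higher in ULB, with a median of -1.80. Ion channel genes gave 6 of 45, among them TRPM3 and GABRA4, higher in GOM, and CACNA2D3, GRIA4 and KCNJ16, higher in ULB, with a median of -0.28. Cadherins gave 2 of 11, CDH13 and CDH18, both higher in ULB, although the median of the list was 0.63. Solute carriers gave 2 of 27 (SLC24A2 and SLCO6A1, higher in ULB) and adipocyte genes 1 of 2 (RBP4, higher in GOM). The lists of ribosome and respiratory chain, zinc finger, keratin, cytochrome P450, chemosensory and progenitor genes gave no call in edgeR.

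The depot count depended on the ULB libraries, of which there were 3. Without BM ULB replicate 2 the test called 31 of 976 members, beside 230 of 16949 genes. Without WB ULB replicate 1 it called 50 of 1082, beside 288 of 18202 genes, and without WB ULB replicate 2 52 of 1071, beside 362 of 18135. In wild boar alone it called 41 of 904, beside 318 of 16183 genes. The calls over all genes thus fell too, from 640 of 17877 in the main fit. Wild boar ULB replicate 1 also held the muscle genes ACTA1 and CKM at a summed TPM of 185, against at most 5.32 in the other 6 libraries. The part of muscle in the genes higher in ULB was not tested. None of the 4 mesothelial markers chosen had a row under its symbol, so the mesothelium that covers the omentum could not be followed here. The 6 adipocyte markers chosen were detected in every library, with a summed TPM of 9576 to 18200. No gene passed the test of a depot by breed interaction in edgeR (0% of 17877). For Bama pig this test had 1 ULB library, so the absence of calls does not show that depot differences were alike in both breeds. In this test 869 genes and 82 of the 1042 members had an unadjusted p below 0.05, and DESeq2 called 52 genes (0.291%) and 8 members.

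PC1 of the start bin, always below 0 and measured in the floating layer rather than in whole tissue, was also compared between depots. Since PC1 chose the bins, its values are a description. Among the 1042 members tested, 475 (45.6%) had a higher mean PC1 in GOM than in ULB, with a median difference of -0.553. Among the 37 genes higher in GOM 30 did (81.1%), with a median difference of 5.27, and among the 50 genes higher in ULB 7 did (14%), with a median difference of -6.00. The start bin of CDH13 had PC1 of -44.2 and -52.7 in BM GOM and -28.6 and -27.6 in WB GOM, against -6.71 in BM ULB and -9.43 and -2.58 in WB ULB. The RNA of CDH13 was 24.5 to 46.4 TPM in the GOM libraries and 107 to 133 in the ULB libraries, so both measures were higher in ULB without overlap. USP43 and FLRT2 showed the reverse, with PC1 of -7.06 to -3.16 and -10.3 to -6.09 in GOM and -16.3 to -13.7 and -17.7 to -15.6 in ULB. There were exceptions. SERPINB2 and MARCO, a macrophage scavenger receptor, were called higher in GOM, while their PC1 in each GOM library was below that in each ULB library.

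**Figure D5:**
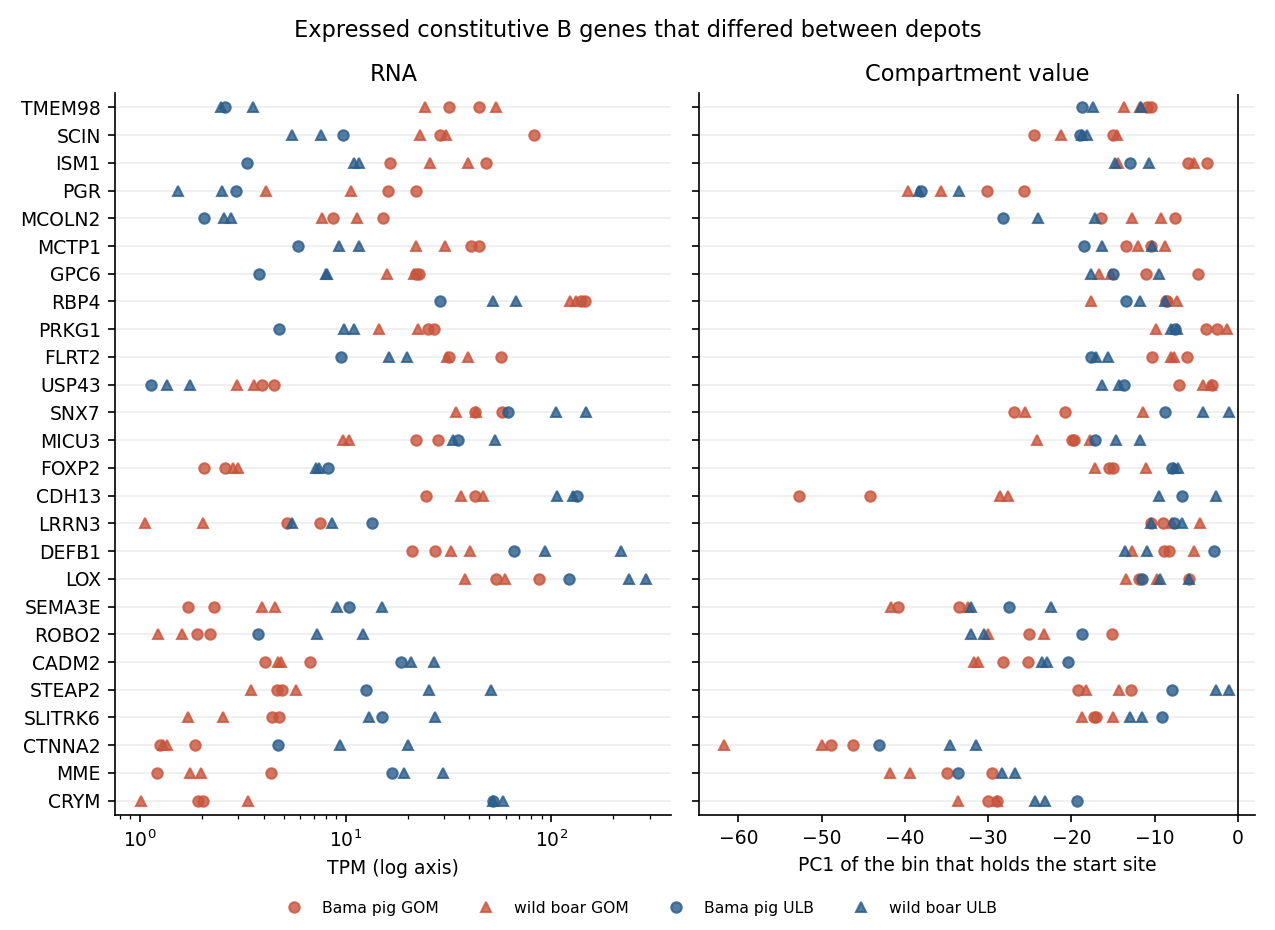
The 26 expressed constitutive B genes called between the depots, ordered by log2 fold change, with 1 point per library, colour for depot and shape for breed. Left, TPM on a log axis, with GOM higher for the upper 11 genes and ULB higher for the lower 15. Right, PC1 of the bin that holds the start site, below 0 in all 7 Hi-C libraries, as the choice of the bins requires.

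Between the breeds few members were called. In the GOM, 2 wild boar against 2 Bama pig libraries, edgeR called 1 of 921 members, beside a background of 0.0241% of 16615 genes, while DESeq2 called 21, beside a background of 1.01%. With 1 GOM library left out, 1 breed is left with a single library, and the edgeR count was not stable. The 1 gene was APOB, the main protein of lipoproteins made by liver and gut, with a TPM of 6.15 and 8.46 in BM GOM, 0.11 and 0.12 in WB GOM, 1.66 in BM ULB, and 0.02 and 0.24 in WB ULB. Over both depots, with depot as a covariate, 9 of 1042 members were called (0.864%), beside a background of 0.42% of 17877 genes. There 3 were higher in wild boar, where 0.123% of all genes were, and 6 were lower, where 0.296% were. With upper-quartile scaling, which moves the median of all genes from -0.04 to -0.18, 9 members were also called, 1 higher and 8 lower, and HSPB8 and ANGPTL5 were no longer among them.

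Among those lower in wild boar were APOB, APOH, SLCO1A2, ANO4 and PENK. APOH, an apolipoprotein of plasma, had a TPM of 14.7 and 41.4 in BM GOM, 3.06 in BM ULB, and at most 1.04 in wild boar (log2 fold change -4.36, SE 0.70, adjusted p = 0.0327 from edgeR). SLCO1A2, an organic anion transporter, had 13.8 to 19.3 in Bama pig and at most 1.98 in wild boar. The 4 liver markers chosen, of which TTR is itself a constitutive B gene, summed to 248 to 1273 TPM in Bama pig and 170 to 216 in wild boar. Albumin (ALB) had 77.7 to 874 and 1.95 to 6.6, and TTR and FGB were also higher in every Bama pig library. APOA1 did not follow, with 147 and 227 in BM GOM, 146 in BM ULB and 163 to 206 in wild boar. The part of liver transcripts in the breed differences was not tested. PENK, which encodes the opioid precursor proenkephalin, was the only one of the 9 among the 424 expressed genes. It had a TPM of 45.1 and 29.4 in BM GOM, 34.5 in BM ULB, 1.49 and 4.76 in WB GOM, and 6.95 and 6.59 in WB ULB, a 6.59-fold lower level in wild boar (log2 fold change -2.72, SE 0.42, adjusted p = 0.0286 from edgeR).

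Higher in wild boar were HSPB8, a small heat shock protein, ANGPTL5 and ATP6V0A4, a subunit of the proton pump. ATP6V0A4 had a TPM of 4.86 and 27.6 in WB GOM, 4.85 and 23.2 in WB ULB, and at most 0.13 in Bama pig (log2 fold change 7.83, SE 1.00, adjusted p = 0.0159 from edgeR). HSPB8 had 56 and 27.1 in WB GOM and 7.91 and 2.08 in WB ULB, against 11.3, 7.08 and 0.4 in Bama pig, so its breeds overlapped across the depots and not within either. ANGPTL5 was high only in WB ULB. No breed call for a named member passed under every alternative, and without BM ULB replicate 2 no member was called over both depots by edgeR. Without BM GOM replicate 2, without WB GOM replicate 1 and without WB GOM replicate 2 the counts were 60, 14 and 3, and with WB ULB replicate 1 or 2 left out 3. The 60 were of 1061 members, beside 1805 of 18091 genes in that fit, a smaller share than that of all genes. Without WB GOM replicate 1 and without WB GOM replicate 2, 137 of 18009 and 28 of 18059 genes were called. Without WB ULB replicate 1 and without WB ULB replicate 2, 22 of 18202 and 30 of 18135 genes were called, and without BM ULB replicate 2, 1 of 16949. Breed differences are between 2 animals each, and the spread between animals of a breed is known only from these.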

How the data were processed

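Hi-C and RNA-seq of GOM and ULB were covered by 7 libraries each. The authors aligned Hi-C reads to Sscrofa11.1, normalized contact matrices with KR and quantile methods, and deposited a PC1 score per 20-kb bin, signed by gene density on each chromosome. The columns are named A-B index but have a mean of 0 per chromosome, so they were read as PC1. On chromosome 10, 2 of 3468 bins were below 0 in all libraries, and it was left out. The authors deposited TAD positions on merged libraries.

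For RNA-seq, stranded libraries with rRNA depleted were quantified with Kallisto (0.43.0 in the submitters' processing notes). The authors deposited estimated counts and TPM of protein-coding genes without further normalization between libraries. Expected counts, as deposited by the authors, were rounded before testing.

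Of 21280 genes, 13584 were placed through symbols in RefSeq on Sscrofa11.1 (17 by a synonym), whose autosomes have the same lengths. Genes entered a test with a TPM above 0.1 in all libraries of at least 1 group. In the tests over both depots BM ULB was a group of 1 library. edgeR 4.0.16 (TMM, R 4.3.3) was the main test and DESeq2 1.42.0 an alternative, both run across all genes, with Benjamini-Hochberg adjustment and two-sided p-values. Library means were compared with exact permutation tests in scipy 1.17.1. Other steps used Python 3.11.15. The test and the bin rule were tested on simulated data, in which false calls exceeded the threshold of the adjusted p in both tools, and more so in DESeq2. The upper-quartile, filter, replicate block and leave-one-out settings were also run.

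The members and gene lists were chosen with earlier results of these data known. Named genes were the 10 expressed members with the highest median TPM, the 5 longest, the 5 farthest from the edge, up to 5 per direction and test with the largest fold change and a mean TPM of at least 1, and up to 4 expressed per list. Other names were chosen after their values were seen, the 26 expressed members called between depots among them. Replicates are separate animals of 2 per breed. Hi-C depth is unknown here, as PC1 and TAD files hold no counts. A few genes, markers and sequences are not reported here.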

Additional observations from a re-analysis of the deposited data

How the results depend on the processing

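The constitutive B length was 834 Mb with PC1 below -5 in every library and 921.6 Mb with runs of at least 3 bins. It was 948 to 960 Mb when each Hi-C library was left out. The silent share was 4.43% at a TPM of 0 and 38.5% at a TPM of at most 1, and 11.5% to 13.2% without each library. Members with a TPM above 1 in all libraries numbered 425 to 440 without each library and 269 where the start bin was below -5 throughout, an alternative chosen after seeing the data, under which the breed and depot calls over all libraries were 3 and 57.

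Members called between breeds in GOM, 1 in edgeR, numbered 21 with DESeq2, 5 without a filter on low values, 3 with the replicate block, and 0 to 16 without each library, where the lone library left is assumed to vary like the others. Over both depots, 9 in edgeR became 72 with DESeq2 (of 1042, beside 1157 of 17877 genes) and 36 without the filter (of 1251, beside 503 of 19549). In these 2 settings the members' share came close to that of all genes. Without each library the count was 0 to 60, beside 1 to 1805 genes. Between depots, 87 became 173 with DESeq2 (beside 1399 of 17877 genes) and 41 in wild boar alone (beside 318 of 16183). Without each library the count was 31 to 81, beside 230 to 656 genes. For the interaction, 0 became 8 with DESeq2. Without the 10 most abundant members, the members' TPM share reversed, to -0.175 percentage points for GOM minus ULB and -0.308 for WB minus BM. Leaving out genes placed by a synonym left the silent share at 11.4% and the expressed count at 424. All 691 alternative values for the 59 results of named genes kept their direction, and 498 stayed past both thresholds. Of 49 named depot results 14 passed under every alternative.

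The replicate numbers were not stated to name the animal. For the depots the block was breed and replicate number together, taken as the animal, and 94 members were called, beside 793 of 17877 genes. For the breeds it was the replicate number alone, and 8 members were called over both depots, beside 65 of 17877 genes. That block joins a wild boar with a Bama pig of the same number, so the breed counts with it do not account for the animal. Deviations of same-numbered libraries had a correlation of 0.154 between WB GOM and WB ULB and 0.15 between WB GOM and BM GOM across 17877 genes, from 2 pairs each.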
